A study of Mus musculus with 10 samples.

Results

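Anaplastic lymphoma kinase (*Alk*), the receptor-type protein tyrosine phosphatase zeta (*Ptprz1*) and the growth factors pleiotrophin (*Ptn*) and midkine (*Mdk*) were followed in RNA that co-purified with the RNA-binding protein MEX3A. The genes were selected by symbol, and *Alk* was selected because its FLAG over WT value had been seen to be among the lowest, so the FLAG over WT values of these genes are given as a description, without a test. Of the 4 genes asked for, 3 had an entry among the 15899 genes of the expression matrix, and *Mdk* was not analysed here. *Alk* RNA was lower in FLAG than in WT, without overlap of single libraries within either protocol, as for 4.47% of all genes. Its WT over FLAG values were 4.03-fold after crosslinking (2 FLAG and 2 WT libraries) and 6.29-fold in native conditions (3 FLAG and 3 WT libraries). *Ptprz1* and *Ptn*, both among the most abundant RNAs of the matrix, differed between FLAG and WT by 0.32 or less on the log2 scale in each protocol.

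ALK is a receptor tyrosine kinase of the developing nervous system that signals through adaptor proteins to the RAS-MAPK, PI3K and STAT3 pathways. PTPRZ1 is a transmembrane phosphatase with chondroitin sulphate chains, made by neural stem cells and glial precursors, and some of its transcripts encode a secreted proteoglycan. Pleiotrophin and midkine are small heparin-binding growth factors that bind the sugar chains of PTPRZ1 and of syndecans, and binding of pleiotrophin to PTPRZ1 is known to lower its phosphatase activity towards substrates that include ALK.

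The libraries were made from neurospheres, floating cultures of neural stem and progenitor cells from the adult subependymal zone (SEZ) of mice aged 10 weeks, grown with EGF and FGF. FLAG cultures came from mice homozygous for a 3X-FLAG tag at the C-terminus of the endogenous *Mex3a* gene (Mex3aFLAG/FLAG), and WT cultures from Mex3a+/+ mice without a tag. The same anti-FLAG antibody was used for both genotypes, so WT libraries give the RNA that the procedure recovers without a tagged protein. Immunoprecipitation was performed after formaldehyde crosslinking (2 FLAG and 2 WT libraries) or in native conditions (3 FLAG and 3 WT libraries). Input RNA was not analysed here, so a FLAG over WT value combines co-purification with differences in RNA abundance between FLAG and WT cultures, and in bulk cultures fewer cells of a type cannot be told apart from less RNA per cell. The methods describe the replicates as biological.

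Library depth is unknown, because the matrix holds log2 values with nearly the same distribution in each library. FLAG native replicates 1 and 3 had 329 and 178 genes tied at their lowest value, against 3 or fewer in each other library. *Mex3a* itself had log2 values of 2.75 to 3.52 in the 5 WT libraries and 3.92 to 6.10 in the 5 FLAG libraries. In FLAG native replicates 1, 2 and 3 it was at 5.95, 4.03 and 6.10. All 10 markers of neural stem and progenitor cells were in the matrix, with a summed log2 level of 10.96 to 11.49 per library. Calls across all genes depended on single libraries: 79 genes were called over all libraries (limma with Benjamini-Hochberg adjustment), 702 without FLAG native replicate 2, 401 without WT crosslinked replicate 2, and 13 to 51 when any other library was left out. With libraries of the same genotype and number as a random block, an alternative chosen after the data had been seen, 15 of the 79 were called and no others.

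*Alk* (ENSMUSG00000055471) lies on the minus strand of chr17:71869442-72603709 (GRCm38), a span that equals its annotated coding region from start to stop codon, so the gene model in the matrix held no untranslated region of *Alk*. *Ptprz1* (ENSMUSG00000068748) lies on the plus strand of chr6:22875502-23052916 and *Ptn* (ENSMUSG00000029838) on the minus strand of chr6:36714929-36810220. No other gene of the matrix overlapped them.

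The MEX-3 recognition element, a pair of 4-base parts separated by a gap of 0 to 8 bases, was counted by its letters on the sense strand of the longest 3′ UTR annotated for each gene in GENCODE M21. In the 1927 nt of *Ptprz1* there were 12 matches, which may overlap each other, in the 1799 nt of *Ptn* there were 4, and in the 470 nt of *Alk* there were 0. Of the 12177 coding genes of the matrix with an annotated 3′ UTR, 79.1% held at least 1 match. Examples from both genes are shown, as DNA in the direction of the transcript with both parts of the element in capitals, to let the spacing be compared: the first line of each gene has no base between the parts, and the other line has a gap.
Ptprz1, chr6:23003041-23003070 (GRCm38, plus strand): ataatacaccgTTAGTATAttgcaatgcag
Ptprz1, chr6:23004160-23004189 (GRCm38, plus strand): ctaatggAGAGaccatacaTATAtaacaaa
Ptn, chr6:36740919-36740948 (GRCm38, minus strand): tcaggctatttATAGTATAattttcacaga
Ptn, chr6:36740079-36740108 (GRCm38, minus strand): tgacaagAGAGgtttcttTCTAgatgccaa

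The matches in *Ptprz1* amounted to 6.23 per kb, against 2.67 per kb over all 3′ UTRs, and 95.9% of the 2341 genes with a 3′ UTR of similar length had fewer. That 3′ UTR belongs to a transcript that ends inside the gene, whereas the longest *Ptprz1* transcript (8068 nt) has a 3′ UTR of 804 nt with 3 matches, or 3.73 per kb, and another transcript has one of 505 nt with 0. The 4 matches of *Ptn* corresponded to 2.22 per kb, and 41.0% of 2261 genes of similar length had fewer. Its other transcript, with a 3′ UTR of 778 nt, held 3 matches. Among the 1050 genes with a 3′ UTR as short as that of *Alk*, 52.3% held at least 1 match. When the second part of the element was taken in its other published order of letters, the counts were 1 for *Alk*, 7 for *Ptprz1* and 6 for *Ptn*, and those of *Ptprz1* came to 3.63 per kb, with fewer in 74.5% of genes of similar length. A match describes the letters and was not tested as a binding site.

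**Figure D1:**
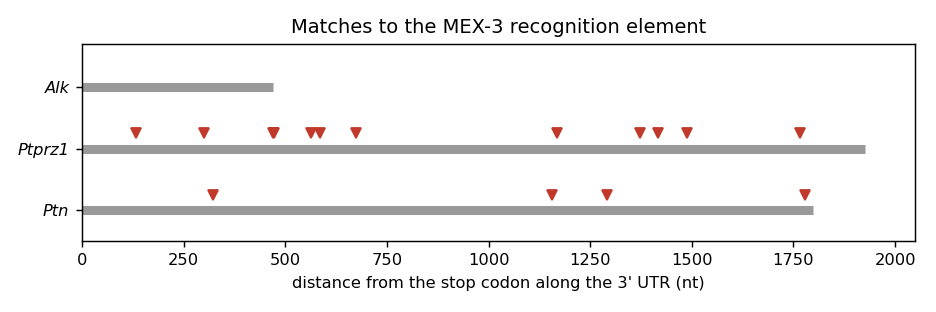
Positions of the MEX-3 recognition element (red triangles, start of each match) along the longest annotated 3′ UTR (grey bars) of *Alk*, *Ptprz1* and *Ptn*, by distance from the stop codon in nt. The 12 matches of *Ptprz1* and the 4 of *Ptn* are spread along the 3′ UTR, and the shorter 3′ UTR of *Alk* holds 0.

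Among the receptors, *Alk* had log2 values of 7.58 and 6.09 in the WT crosslinked libraries and of 5.19 and 4.46 in the FLAG crosslinked libraries. In native conditions its values were 7.88, 7.27 and 7.72 in WT and 4.79, 5.32 and 4.80 in FLAG. The groups did not overlap in either protocol, and 4.47% of all genes were separated in this direction. The lowest WT value of *Alk* exceeded its highest FLAG value by 0.90 after crosslinking and by 1.95 in native conditions. WT crosslinked replicate 2 was the lowest WT library and FLAG native replicate 2 the highest FLAG library. In terms of rank within a library, 90.3% to 97.5% of genes lay below *Alk* in the WT libraries and 74.1% to 83.9% in the FLAG libraries.

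The group means of *Alk* were, from the highest, 7.62 ± 0.31 in WT native (SD, n = 3), 6.83 ± 1.05 in WT crosslinked (SD, n = 2), 4.97 ± 0.30 in FLAG native (SD, n = 3) and 4.82 ± 0.51 in FLAG crosslinked (SD, n = 2). In this order the SDs of WT native and WT crosslinked overlapped, as did those of FLAG native and FLAG crosslinked, and the larger step lay between WT and FLAG. FLAG over WT, as a log2 fold change, stood at -2.40 (SE 0.28) over all libraries in a fit with protocol as covariate, -2.01 (SE 0.59) with crosslinking and -2.65 (SE 0.22) in native conditions. These were the 24th, 33rd and 23rd lowest of 15899 genes. By the thresholds of the study (adjusted p-value below 0.05 and a log2 fold change beyond 0.58), 37 genes were called lower over all libraries (0.233% of genes), 17 in native conditions (0.107%) and 0 with crosslinking (0%) in limma, where 157 had an unadjusted p-value below 0.05 with a change of that size. *Alk* stands in the first and second of these sets, which its selection on the same values makes no result, and nothing is read from it. Every FLAG library lay below every WT library in both protocols for *Alk*, as for 4.47% of all genes. Without WT crosslinked replicate 2 the crosslinked value was -2.76, and without WT crosslinked replicate 1 it was -1.27. *Alk* dropped out of the native set without FLAG native replicate 3, without WT native replicate 1 or 3, and when the 4 groups were fitted together, with values between -2.65 and -2.53.

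*Ptprz1*, the phosphatase receptor, had log2 values of 10.97 and 10.83 in WT crosslinked, 11.39 and 11.06 in FLAG crosslinked, 10.75, 10.81 and 11.19 in WT native and 11.09, 10.81 and 10.93 in FLAG native libraries. It was the 23rd to 39th highest gene of each library before any correction for length. The highest group mean, 11.22 ± 0.23 in FLAG crosslinked (SD, n = 2), exceeded the lowest, 10.90 ± 0.10 in WT crosslinked (SD, n = 2), and both native means lay between them and within 0.05 of the lowest (10.92 ± 0.24 in WT and 10.94 ± 0.14 in FLAG, SD, n = 3). FLAG over WT was 0.14 (SE 0.13) on the log2 scale over all libraries, 0.32 (SE 0.17) with crosslinking and 0.03 (SE 0.18) in native conditions. The crosslinked groups, of 2 libraries each, were separated by 0.09, from which nothing is read, and the native groups overlapped.

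*Ptn*, the pleiotrophin gene, had log2 values of 9.34 and 8.54 in WT crosslinked, 8.96 and 9.27 in FLAG crosslinked, 9.53, 8.94 and 9.57 in WT native and 8.86, 9.39 and 8.84 in FLAG native libraries. FLAG and WT values overlapped in both protocols. The group means ran from 9.34 ± 0.35 in WT native (SD, n = 3) through 9.12 ± 0.22 in FLAG crosslinked (SD, n = 2) and 9.03 ± 0.31 in FLAG native (SD, n = 3) to 8.94 ± 0.56 in WT crosslinked (SD, n = 2), each step being within the SDs. FLAG over WT was -0.12 (SE 0.20) on the log2 scale over all libraries, 0.18 (SE 0.32) with crosslinking and -0.31 (SE 0.23) in native conditions. *Ptn* was the 103rd to 222nd highest gene of each library before correction for length. By the same thresholds neither *Ptn* nor *Ptprz1* was among the 37 genes called lower or the 42 called higher over all libraries (0.264% of genes called higher), and neither was among the genes (4.84%) whose FLAG libraries all lay above the WT libraries in both protocols.

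**Figure D2:**
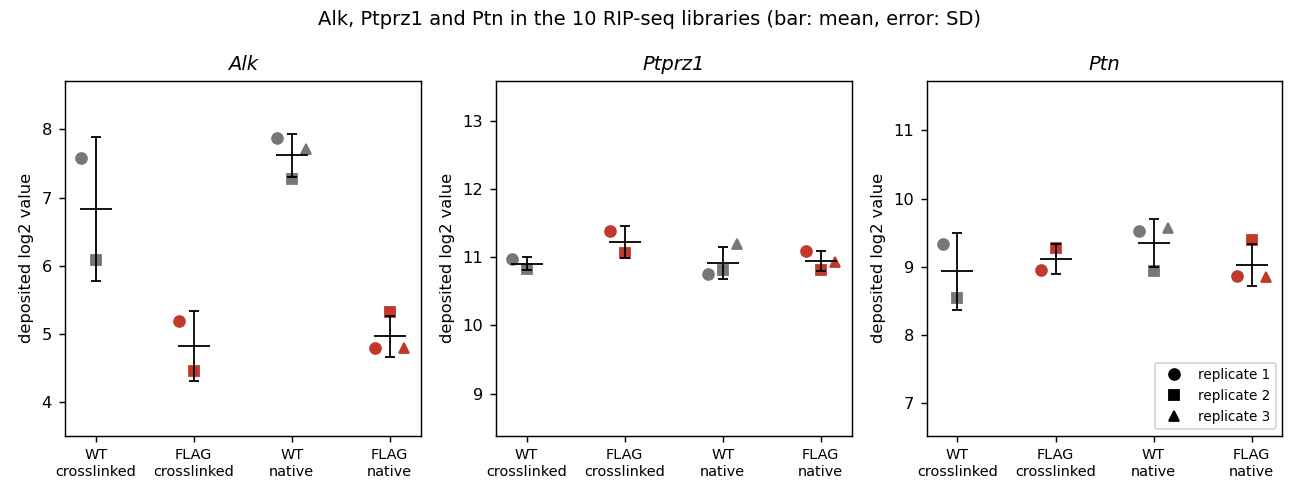
Deposited log2 value of *Alk*, *Ptprz1* and *Ptn* (vertical axes, each of the same height in log2 units) in the WT (grey) and FLAG (red) libraries of both protocols, with a point per library, the group mean (bar) and SD (error bar). The FLAG values of *Alk* lie between 4.46 and 5.32, below the WT values of 6.09 to 7.88, whereas the *Ptn* groups overlap in both protocols.

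Levels of the genes were compared with each other after division by exonic length (7755 nt for *Alk*, 14245 nt for *Ptprz1* and 3433 nt for *Ptn*). On this log2 per kb scale *Ptprz1* exceeded *Alk* by 2.42 ± 0.37 in WT native and by 5.10 ± 0.43 in FLAG native libraries (SD, n = 3), and by 3.19 ± 0.96 in WT crosslinked and 5.52 ± 0.28 in FLAG crosslinked libraries (SD, n = 2). *Ptprz1* and *Ptn* were nearly level, with differences of -0.48 ± 0.33 in WT native and -0.14 ± 0.43 in FLAG native libraries (SD, n = 3). With the coding length of *Alk* (4863 nt) in place of its exonic length, an alternative chosen after the data had been seen, its level per kb was 5.34 in WT native and 2.69 in FLAG native, still below the 7.07 to 7.57 of *Ptprz1* and *Ptn* in every group.

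Within the native groups the distance between *Ptn* and *Alk* varied little. The log2 per kb difference of *Ptn* over *Alk* was 2.82, 2.84 and 3.03 in the WT native libraries and 5.24, 5.25 and 5.22 in the FLAG native libraries. Its SD of 0.11 in WT and 0.01 in FLAG (n = 3 each) was smaller than the SD of *Alk* itself in the same groups (0.31 and 0.30), as was that of 14.6% of all genes against *Alk*. An SD no larger than that of *Ptn* in both native groups was found for 3 of 15898 genes (0.0189%), *Ptn* included, a bar that was set from the value of *Ptn* itself and is given without a test. In the crosslinked libraries the difference was 2.93 and 3.62 in WT and 4.95 and 5.99 in FLAG, with an SD of 0.49 in WT and 0.74 in FLAG (n = 2 each), which was below that of *Alk* in WT (1.05) and above it in FLAG (0.51).

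The contrast of crosslinked with native libraries within a genotype did not enter the selection and was tested for each gene, in a fit of all 4 groups. In that fit 53 genes were called between the WT groups (0.333% of genes) and 70 between the FLAG groups (0.44%). When libraries of the same genotype and number were treated as a pair, an alternative chosen after the data had been seen, 5 and 5 genes were called, and the 3 members passed in neither fit. Without the pairing, *Alk* was at -0.79 on the log2 scale in WT (SE 0.41, 95% interval -1.70 to 0.12, limma adjusted p = 0.730) and at -0.15 in FLAG (SE 0.41, interval -1.05 to 0.76, limma adjusted p = 0.877). The WT value rested on WT crosslinked replicate 2, without which it was -0.04, and was -1.53 without WT crosslinked replicate 1.

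For *Ptprz1* the same contrast gave -0.01 in WT (SE 0.18, 95% interval -0.42 to 0.39, limma adjusted p = 0.998) and 0.28 in FLAG (SE 0.18, interval -0.13 to 0.68, limma adjusted p = 0.473). For *Ptn* it gave -0.41 in WT (SE 0.29, interval -1.05 to 0.23, limma adjusted p = 0.841) and 0.09 in FLAG (SE 0.29, interval -0.56 to 0.73, limma adjusted p = 0.902). None of these 6 values passed the test, and the intervals left room for changes of more than 1 log2 unit downwards for *Alk* in both genotypes and for *Ptn* in WT.

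The difference of FLAG over WT between the protocols, native minus crosslinked, was tested in the same fit, in which limma called 0 genes (0%), against 37 with a positive and 29 with a negative difference of that size when the p-value was left unadjusted (below 0.05). It was -0.64 for *Alk* (SE 0.57, 95% interval -1.92 to 0.64), -0.29 for *Ptprz1* (SE 0.26, interval -0.87 to 0.28) and -0.49 for *Ptn* (SE 0.41, interval -1.40 to 0.41), each with a limma adjusted p = 0.970. Without WT crosslinked replicate 2 the value of *Alk* was 0.10. A difference between the protocols was thus not detected for any of the 3 genes, and for *Alk* neither its direction nor its size was settled by these libraries. Since *Alk* was selected on FLAG over WT, from which this difference is formed, its value is a description and no independent test.

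**Figure D3:**
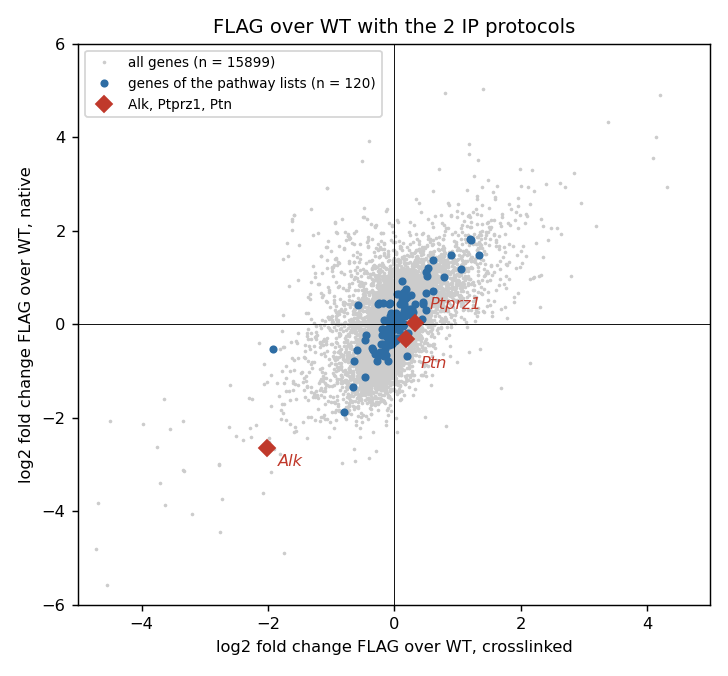
Log2 fold change of FLAG over WT in crosslinked (horizontal axis) and native (vertical axis) libraries for all 15899 genes (grey, 4 outside the axes), the 120 genes of the pathway lists (blue) and *Alk*, *Ptprz1* and *Ptn* (red diamonds). *Alk*, selected for a low value, lies at -2.01 and -2.65, away from the bulk of genes, and *Ptprz1* and *Ptn* lie within it.

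Other genes of the pathway were taken from lists that hold 133 genes, of which 120 were in the matrix. Over all libraries 1 of the 120 passed the test in the higher direction and 0 in the lower, while 11 and 4 had a change of that size when the p-value was left unadjusted (below 0.05), as did 7.24% and 5.28% of all genes, which is the background for each list as well. The median log2 fold change of the 120 genes was 0.03 against -0.03 for all genes. All FLAG libraries lay above all WT libraries in both protocols for 6 of the 120 and below them for 5, shares close to those of all genes given above. The number called was 13 without FLAG native replicate 2 (4.42% of all genes), 4 without WT crosslinked replicate 2 (2.52% of all genes). It was 0 with the random block, without FLAG native replicate 1, FLAG crosslinked replicate 2, WT crosslinked replicate 1, or without any of the 3 WT native replicates in turn.

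The gene that passed was *Itga4*, which encodes the integrin alpha 4 chain and stood on the list of other pleiotrophin and midkine receptors (29 of 31 in the matrix). Its log2 values were 5.22 and 5.24 in WT crosslinked, 6.35 and 6.23 in FLAG crosslinked, 5.32, 5.24 and 5.34 in WT native and 6.52, 5.96 and 7.0 in FLAG native libraries, so each FLAG value lay above each WT value. It rose by 1.14 (SE 0.17, limma adjusted p = 0.0234). In this fit crosslinked and native libraries of 1 number counted as separate. With the random block it was at 1.17 (SE 0.18) and did not pass (limma adjusted p = 0.0543). *Sdc4*, a transmembrane heparan sulphate proteoglycan, had the highest value of the list, 1.57 (SE 0.31), and did not pass (limma adjusted p = 0.0580). The study names *Sdc4* as bound by MEX3A. Its methods used DESeq2 and it kept genes enriched in both IPs, so the limma test is not its procedure. *Ncan*, a chondroitin sulphate proteoglycan of the brain matrix, was at 1.07 (SE 0.36). At the other end were *Kdr*, a VEGF receptor, at -1.09 (SE 0.53), *Lrp2*, an endocytic receptor, at -0.72 (SE 0.16), and *Gpc3*, a glypican, at -0.56 (SE 0.42). The list's median was 0.06.

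Of the adaptors and effectors of ALK signalling, 36 of 41 were in the matrix and 0 passed the limma test in either direction (4 higher and 0 lower without adjustment), with a median of 0.09. The highest were *Spry2* at 1.43 (SE 0.34, limma adjusted p = 0.0897) and *Dusp6* at 0.92 (SE 0.26), feedback inhibitors of receptor tyrosine kinase and ERK signalling, followed by the small GTPase gene *Nras* at 0.83 (SE 0.22). The lowest were *Etv1*, an ETS transcription factor, at -0.46 (SE 0.11, limma adjusted p = 0.0891), and the adaptors *Shc1* at -0.22 (SE 0.18) and *Gab2* at -0.21 (SE 0.15). The nearest relatives of this receptor system, the partner kinase *Ltk* and the ligand genes *Alkal1* and *Alkal2*, were not analysed here.

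Of the partners, relatives and substrates of PTPRZ1, 23 of 24 were in the matrix and 0 passed in limma (0 higher and 1 lower without adjustment), with a median of -0.02. *Cntn4* (1.26, SE 0.60) and *Cntn3* (-1.06, SE 0.26, limma adjusted p = 0.0923), both contactins and thus cell adhesion molecules, stood at opposite ends. Next to *Cntn4* came *Nfasc*, another adhesion molecule, at 0.47 (SE 0.20) and *Ctnnb1*, the gene of beta-catenin, at 0.43 (SE 0.22), and next to *Cntn3* the scaffold gene *Magi3* at -0.57 (SE 0.18) and *Afap1l2* at -0.51 (SE 0.32). Of the enzymes that build the heparan and chondroitin sulphate chains to which both ligands bind, 32 of 34 were in the matrix and 0 passed in limma (3 higher and 2 lower without adjustment), with a median of 0.01. Their extremes were *B3galt6*, of the linker region, at 1.57 (SE 0.49), *Dsel* at 0.93 (SE 0.35) and *Extl2* at 0.61 (SE 0.20), and *Hs6st3*, a heparan sulphate 6-O-sulphotransferase, at -1.44 (SE 0.33, limma adjusted p = 0.0865), *Chsy3*, a chondroitin synthase, at -0.85 (SE 0.22) and *Ext1*, a heparan sulphate polymerase, at -0.50 (SE 0.17). The lowest value in these lists was that of *Hs6st3*. The -2.40 of *Alk* is not set against it, because *Alk* was selected for a low value.

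**Figure D4:**
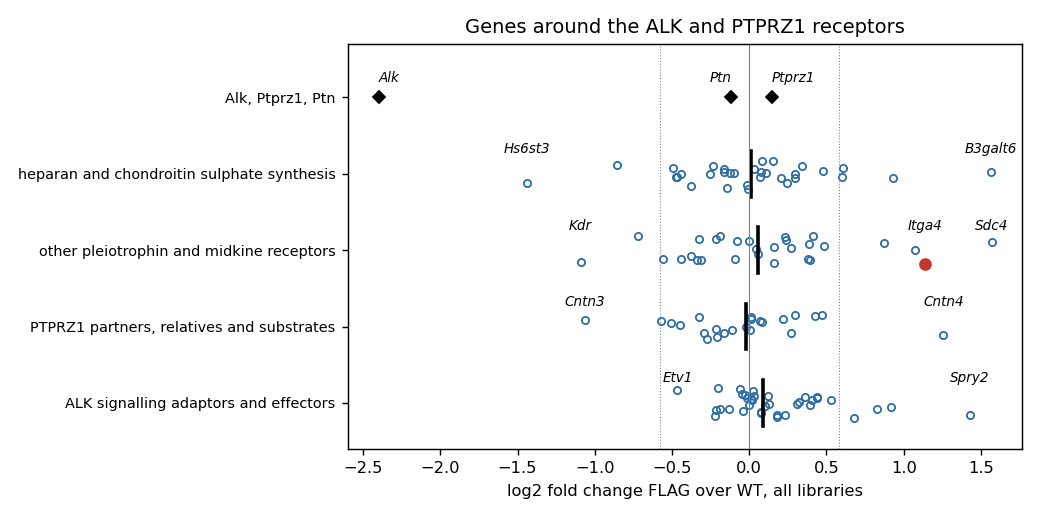
Log2 fold change of FLAG over WT over all libraries (horizontal axis) for *Alk*, *Ptprz1* and *Ptn* (black diamonds) and for the genes of each pathway list (blue circles, spread vertically for visibility), with the list's median as a black line, the fold change threshold of 0.58 in both directions as dotted lines and the called gene in red. *Alk* lies at -2.40, *Itga4* is the gene called, at 1.14, and the medians lie between -0.02 and 0.09.

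The genes with the most similar pattern to *Alk* were sought among 15423 genes by the root mean square difference between log2 profiles over the 10 libraries, each centred on its own mean. *Alk* itself had a spread of 1.30 on this scale. The closest were *Fam135b* (0.360), *Car8* (0.378), *Grin2a* (0.413), *Gm7173* (0.450) and the lincRNA *Gm30382* (0.455). They lie on different chromosomes. *Car8*, a carbonic anhydrase-related protein gene, had log2 values of 5.54 and 4.49 in WT crosslinked, 2.34 and 2.13 in FLAG crosslinked, 5.50, 4.93 and 5.39 in WT native and 2.08, 2.32 and 2.38 in FLAG native libraries. As in *Alk*, WT crosslinked replicate 2 was the lowest WT library. The first 4 were called lower over all libraries and *Gm30382* was not. With the random block *Car8* was still called, and *Fam135b*, *Grin2a* and *Gm7173* were not. Since the likeness was measured on profiles that hold the same FLAG and WT libraries, this is a description of the pattern. For *Ptprz1* and *Ptn* the measure separated few genes: 2054 and 441 genes lay within 0.25 of them, and the nearest were *2010009K17Rik* and *Gsdme* for *Ptprz1* and *Sfxn5* and *Itpr2* for *Ptn*.

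**Figure D5:**
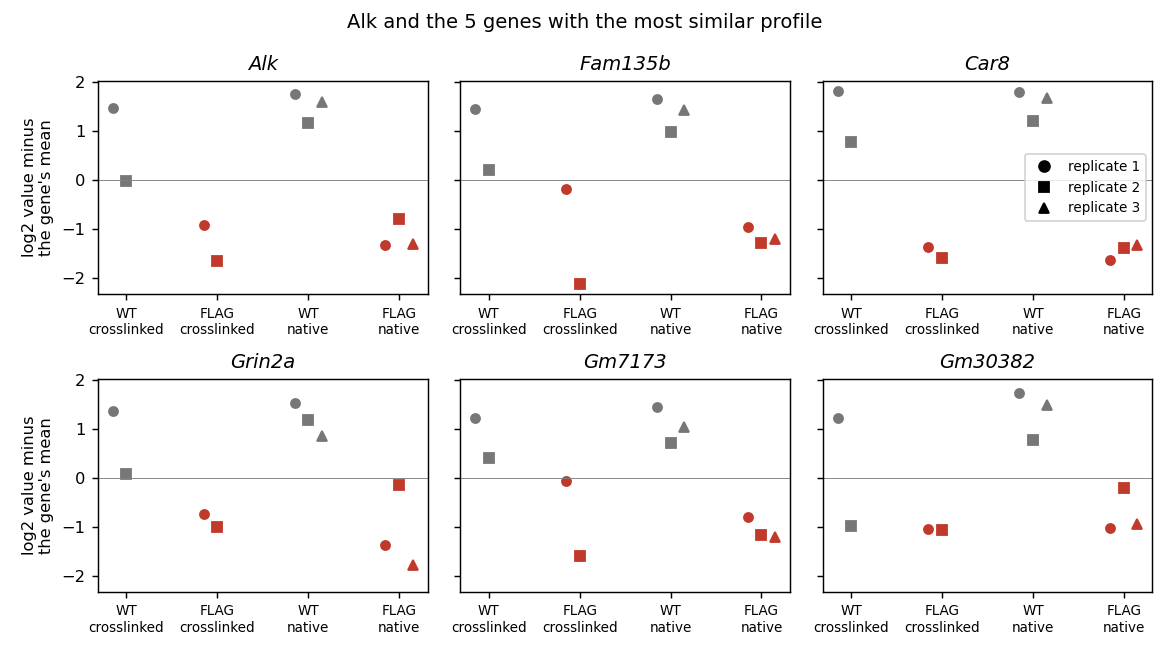
Log2 value minus the gene's mean over 10 libraries (vertical axes) of *Alk* and of the 5 genes with the most similar profile, by group, with a point per library (grey for WT, red for FLAG). *Alk* and all 5 genes have every FLAG library below every WT library of the same protocol.

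No gene called in FLAG over WT lay close to the members. Of all genes 0.264% were called higher and 0.233% lower, so 0 calls among so few neighbours say little. Within 250 kb of *Alk* the matrix held *Clip4* (0.02, SE 0.16), *Ypel5* (0.30, SE 0.17), *Wdr43* (-0.17, SE 0.09) and *Togaram2* (-0.01, SE 0.33), all values being FLAG over WT over all libraries, and 0 of these 4 passed the test. Around *Ptprz1* there were 2 genes, *Aass* at -0.58 (SE 0.32) and *Cadps2* at -0.55 (SE 0.24), and around *Ptn* there were 3, *Dgki* at -0.44 (SE 0.16), *1700111E14Rik* at -0.79 (SE 0.28) and *Gm7452* at -0.95 (SE 0.38), none of which passed. Within 500 kb, 0 of 12, 0 of 2 and 0 of 3 genes passed.

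Markers of other cell types were measured in the same libraries, and 1 of them, the neuronal gene *Rbfox3*, was called lower, as were 0.233% of all genes. Of 6 markers of neuroblasts and neurons only *Rbfox3* and *Syt1* were analysed here, while *Dcx*, *Tubb3*, *Dlx2* and *Stmn2* were not. Their summed log2 level was 4.71 to 4.72 in WT crosslinked, 3.37 to 4.16 in FLAG crosslinked, 4.72 to 5.17 in WT native and 3.44 to 3.81 in FLAG native libraries, and *Rbfox3*, a neuronal nuclear protein, fell by 1.31 (SE 0.17, limma adjusted p = 0.0127). *Syt1*, a synaptic vesicle protein gene, was at -0.52 (SE 0.26, limma adjusted p = 0.270), and its groups overlapped. More of the sum came from *Rbfox3* (mean log2 3.87) than from *Syt1* (2.07). The summed level of the 4 of 8 oligodendrocyte lineage markers analysed, none of which passed the test, went the other way, from 5.94 to 6.47 in WT to 6.61 to 6.80 in FLAG crosslinked libraries, and from 6.34 to 7.17 in WT to 7.0 to 8.67 in FLAG native libraries, where the ranges overlapped. The summed levels of 4 of 5 astrocyte markers (7.93 to 8.70) and 3 of 6 microglial markers (4.85 to 5.19) overlapped between FLAG and WT in both protocols. The astrocyte sum was mostly *Aldh1l1* (0.06, SE 0.14), and within that list the water channel gene *Aqp4* was at 1.66 (SE 0.49) with FLAG above WT in both protocols and the connexin gene *Gja1* at 1.07 (SE 0.29), neither of which passed (limma adjusted p = 0.129 and 0.110). By its own procedure the study names *Aqp4* as bound by MEX3A. The 2 of 6 endothelial and mural markers analysed were at 1.16 to 1.34 in WT and 0.21 to 0.52 in FLAG crosslinked libraries and overlapped in native ones. The part of these markers in the values of *Alk* was not tested.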

How the data were processed

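RIP-seq libraries were grouped by the genotype, protocol and replicate number in the labels, and all 10 were used. The authors deposited 1 matrix of log2 values, with no SD or depth. They had used Cutadapt and Trimmomatic for trimming, HISAT2 for mapping to GRCm38 and featureCounts for gene counts, with DESeq2 named by the methods for normalization and limma by the submitters' processing notes. DESeq2 size factors alone do not give the nearly equal distributions of the deposited values, and a further step is not given in the sources used here. Sharing 1 distribution, values are relative within a library, so a shift of all RNAs would not be seen.

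The members and all lists were chosen with earlier results of these data known. The deposited log2 values were used without a pseudocount in limma 3.58.1 (R 4.3.3; lmFit, eBayes with a trend, Benjamini-Hochberg adjustment over 15899 genes), which was first tested on simulated data. Calls needed an adjusted p-value below 0.05 together with a change beyond 0.58 in log2 units, up or down. Gene models came from GENCODE M21, in which 15864 genes were matched. Crosslinked and native libraries of 1 genotype and number deviated together (correlations of 0.15 to 0.39 in 4 pairs), and the methods state that both IPs ran in parallel. Named pathway genes are those called and the 3 highest and 3 lowest of each list. Named likeness genes are the 5 nearest to *Alk* and the 2 nearest to each other member. Alternatives were pseudocounts, a minimum mean, other scalings, array weights, robust moderation, a replicate block, other samples in the fit and leaving out each library. Python 3.11.15, numpy 2.4.6, pandas 2.3.3, pysam 0.24.0 and matplotlib 3.10.9 were used.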

Additional observations from a re-analysis of the deposited data

How the results depend on the processing

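*Alk* kept a negative FLAG over WT value in all 20 alternatives over all libraries (-2.87 to -2.13), all 14 with crosslinking (-2.76 to -1.27) and all 15 in native conditions (-2.89 to -2.38). FLAG over WT of *Ptprz1* in native conditions (0.03) went to -0.056 at the lowest, below 0 in 3 of 15 alternatives, and that of *Ptn* with crosslinking (0.18) went to -0.22 in 1 of 14, without WT crosslinked replicate 2. Contrasts between protocols changed sign, without passing, in these cases. *Ptprz1* in WT (-0.01) became 0.051 with the replicate block and 0.12 with the block within genotype, and ran from -0.097 to 0.12 with a library left out, above 0 without WT crosslinked replicate 2 or WT native replicate 3. *Ptn* in FLAG (0.09) became -0.0073 with the block within genotype, and ran from -0.072 to 0.26, below 0 without FLAG crosslinked replicate 2 or FLAG native replicate 1 or 3. *Alk* in FLAG (-0.15) ran from -0.51 to 0.22, above 0 without FLAG crosslinked replicate 2 or FLAG native replicate 2, and its difference between protocols (-0.64) from -1.39 to 0.10, above 0 without WT crosslinked replicate 2.

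The replicate numbers did not pair FLAG with WT, since deviations from group means correlated at -0.43 to -0.15 between FLAG and WT libraries of 1 number and protocol and at -0.10 to -0.03 across protocols. With the replicate block the genes called fell from 79 to 34 over all libraries, from 53 to 2 between WT protocols and from 70 to 12 between FLAG protocols, and other counts of calls kept within 1.5 times. A random block of genotype and replicate number, chosen after seeing the data, lowered the genes called over all libraries to 15 and the pathway genes called from 1 to 0. A fixed block within genotype, also chosen then, gave 5 and 5 between protocols, and crossing the numbers of the crosslinked libraries, also chosen then, gave 0 calls. 

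Other counts of genes called changed as follows. Over all libraries (79) there were 41 with a pseudocount of 8, 43 with a minimum mean of 10, 2069 with array weights, 13 to 702 with a library left out, and 2231 without both WT crosslinked replicate 2 and FLAG native replicate 2, a choice made after seeing the data. Pathway genes called (1) were 22 with array weights, 0 to 13 with a library left out and 24 without both. With crosslinking (0) there were 0 to 4 with a library left out. In native conditions (17) there were 7 with a minimum mean, 3577 with array weights, 27 with robust moderation, 4 in the fit of 4 groups and 0 to 3160 with a library left out, and pathway genes (0) were 35 with array weights and 0 to 32 with a library left out. Between WT protocols (53) there were 4 and 2 with pseudocounts of 1 and 8, 2 with a minimum mean, 864 with array weights, 6 with those 5 libraries alone and 0 to 142 with a library left out. Between FLAG protocols (70) these were 26, 3, 11, 1488, 11 and 3 to 2648. For the difference between protocols (0) there were 0 to 1 with a library left out. The causes were not tested. Groups of 2 or 3 libraries are too small to single out a library, and ties among low values were most frequent in FLAG native replicates 1 and 3.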
